A study of Arabidopsis thaliana with 24 samples.

Results

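The 8 genes described here encode the enzymes that take chlorophyll apart in Arabidopsis leaves: NYE1, NYE2, NYC1, NOL, HCAR, PPH, PAO and RCCR. They were taken by their gene identifiers from a table of 33044 genes. RNA was sequenced from the wild type Col-0 and from the double mutant dpe2/phs1, which was made by crossing and is meant to lack the cytosolic disproportionating enzyme DPE2 and the plastidial phosphorylase PHS1. There were 8 groups of 3 biological replicates, 24 libraries in all. Whole shoots were taken 3 weeks after germination, in the Prior Period, from dpe2/phs1 (dP) and Col-0 (wP). Young and mature leaves with their petioles were taken at 5 weeks, in the Reduced Granule Number Period (RGN), when mutant chloroplasts hold few starch granules: dY and dM came from dpe2/phs1, wY and wM from Col-0. Whole shoots were taken again at 7 weeks, in the Recovery Period, as dR and wR. Age and tissue cannot be told apart between the shoots and the leaves of RGN.

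Chlorophyll is dismantled in order. NYC1 and NOL start the reduction of chlorophyll b and HCAR completes its conversion to chlorophyll a. NYE1 and NYE2, also called SGR1 and SGR2, take the magnesium out of chlorophyll a, PPH cuts off the phytol tail, PAO opens the ring and RCCR reduces the red product, and the colourless catabolites end in the vacuole. The pathway is best known for the yellowing of senescing leaves, where NAC, abscisic acid and ethylene factors switch on several of its genes.

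All levels are FPKM, read counts scaled to gene length and library total, a scale on which genes can be compared. Libraries held 17504383 to 27859805 counted reads, and the 8 genes took from 14 (NYE2) to 9786 (NYC1) reads in a library. DPE2 and PHS1 were lower in the mutant in the Prior Period and at both leaf ages of RGN (adjusted p of at most 1.9e-05, limma). In the Recovery Period they did not separate the genotypes. DPE2 ranged from 34.6 to 38.3 FPKM in dR and from 19.1 to 39.1 FPKM in wR (adjusted p = 0.12), and PHS1 averaged 22.7 FPKM in dR and 26.03 FPKM in wR (adjusted p = 0.65). PHS1 averaged 145.3, 169.2 and 126.1 FPKM in wP, wY and wM, and 21.54, 25.44 and 10.64 FPKM in dP, dY and dM. DPE2 averaged 98.62, 74.23 and 93.49 FPKM in wP, wY and wM, and 43.82, 24.84 and 37.32 FPKM in dP, dY and dM. For both, wR lay below the other Col-0 groups, while dR lay within the range of the other mutant groups. The reason was not tested. These 2 transcripts thus do not tell dR from the libraries labelled wR, and comparisons with those libraries are given under that name. The leaf label was checked with 4 mesophyll genes, whose FPKM summed to between 10940 and 33930, and with 8 floral genes, whose sum stayed at or below 1.68. In bulk tissue, fewer cells of a type and less RNA per cell cannot be told apart.

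The stretches before NYE2, NYC1 and PPH are shown because the largest differences of the set fell on NYE2 and NYC1, and because all 3 share a NAC core. Each line holds the 250 bases before the annotated gene start, 5′ to 3′ on the strand of the gene, from the RefSeq copy of TAIR10.1. NYE2 is at chr4:7155900-7156149 (plus strand), NYC1 at chr4:7687007-7687256 (minus strand) and PPH at chr5:4454814-4455063 (minus strand). Capitals mark the G-box CACGTG, the ABRE core ACGTG, which lies inside every G-box, and the NAC core CATGTG, each searched on both strands.
NYE2: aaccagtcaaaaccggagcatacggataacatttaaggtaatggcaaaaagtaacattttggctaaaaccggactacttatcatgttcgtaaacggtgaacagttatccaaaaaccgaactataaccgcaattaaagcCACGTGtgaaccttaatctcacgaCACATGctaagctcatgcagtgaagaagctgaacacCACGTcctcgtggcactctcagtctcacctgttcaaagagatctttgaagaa
NYC1: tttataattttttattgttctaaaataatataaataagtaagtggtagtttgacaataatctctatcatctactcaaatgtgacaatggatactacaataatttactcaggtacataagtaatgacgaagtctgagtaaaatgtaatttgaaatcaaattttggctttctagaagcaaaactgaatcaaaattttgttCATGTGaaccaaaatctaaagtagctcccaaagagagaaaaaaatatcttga
PPH: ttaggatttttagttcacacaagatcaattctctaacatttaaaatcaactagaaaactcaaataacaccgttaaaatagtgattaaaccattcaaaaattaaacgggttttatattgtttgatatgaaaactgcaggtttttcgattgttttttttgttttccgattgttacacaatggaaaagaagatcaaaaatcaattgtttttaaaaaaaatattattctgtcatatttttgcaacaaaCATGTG

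NYE2 held a G-box that begins 112 bases before its start, a further ABRE core at 52 and a NAC core at 88. NYC1 held a NAC core at 52 and PPH a NAC core at 6. Among the 8 genes 2 had a G-box, 2 an ABRE core and 3 a NAC core, while 6.48%, 22.9% and 11.1% of 27419 protein-coding genes had these motifs in windows of the same length. NOL was the other gene with a G-box, at 21 bases, in a window that overlaps its neighbour. None of the 3 motifs was found in the windows of NYE1, HCAR, PAO and RCCR, and those of NYE1 and PAO also overlap a neighbouring gene. A match describes letters and is not a shown binding site.

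NYC1 had the highest mean of the 8 genes in 6 groups and NYE2 the lowest in 7. Between its highest and lowest group means NYE2 ranged over 61.0-fold and NYC1 over 26.3-fold. The range was 4.98-fold for PAO, 3.48-fold for NYE1, 3.18-fold for PPH and 2.71-fold for RCCR, and only 1.83-fold for HCAR and 1.59-fold for NOL. NYE1, NYE2, PPH, PAO and RCCR all had their highest level in dM, where the 3 libraries stood above the 21 others. The share of all genes tested with this pattern was not computed. All 8 genes passed the filter of a mean of at least 1 FPKM in at least 1 group, although NYE2 lay under it in wP and wY.

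**Figure D1:**
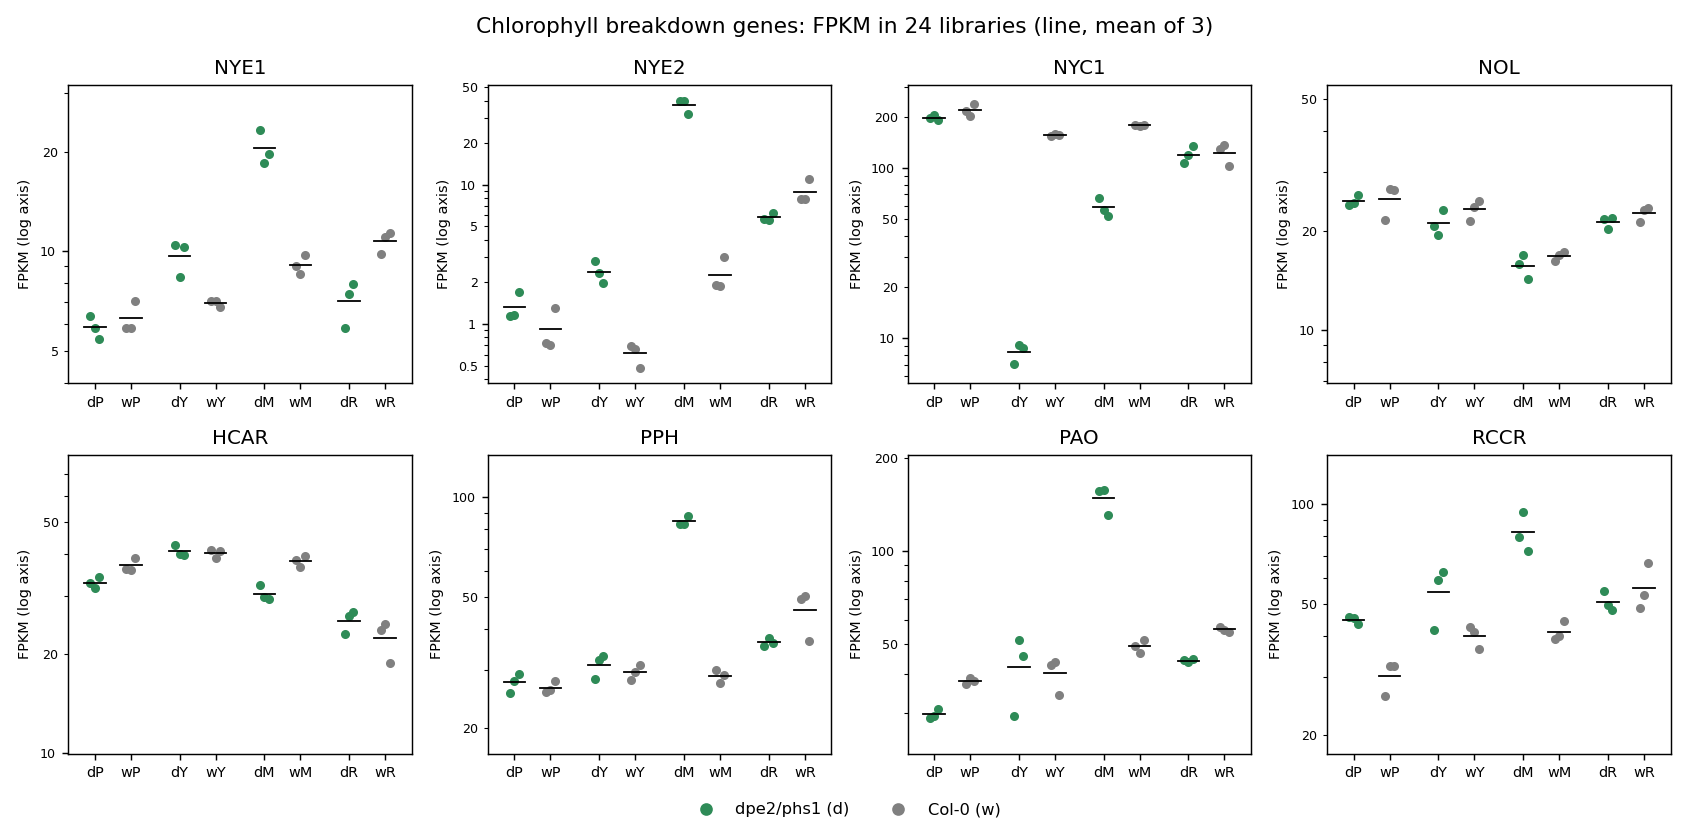
FPKM of each gene in the 24 libraries, on log axes, with 1 panel per gene, green points for dpe2/phs1, grey points for Col-0 and a line at the mean of 3. The dM libraries stand above all others for NYE1, NYE2, PPH, PAO and RCCR, and the dY libraries of NYC1 lie at 7.06 to 9.09 FPKM, below its 21 others.

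More of the 8 genes were called between the genotypes in mature leaves of RGN than at any other stage, although NYC1 differed most in young leaves. The same stage had the most calls over all genes tested. In mature leaves NYE1, NYE2, PPH, PAO and RCCR were higher in the mutant, NYC1 and HCAR were lower and NOL did not pass the test: 5 genes higher and 2 lower, while 36.6% of the 19575 genes tested were higher and 32.5% lower. In young leaves NYE1, NYE2 and RCCR were higher and NYC1 was lower (all genes 34.6% higher and 19.1% lower). In the Prior Period RCCR was higher and PAO lower (all genes 24.3% and 14.9%). In the Recovery Period no gene of the 8 was higher, and NYE1, NYE2, PPH and PAO were lower against the libraries labelled wR (all genes 31.6% higher and 25.2% lower). The median log2 fold change of the 8 genes was 1.03 in mature leaves, where all genes had a median of 0.05, and lay between −0.21 and 0.05 in the other 3 comparisons. Since most genes tested were called in mature leaves, the sizes of the differences are given below beside each call. Comparisons that share a group are not independent of each other.

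**Figure D2:**
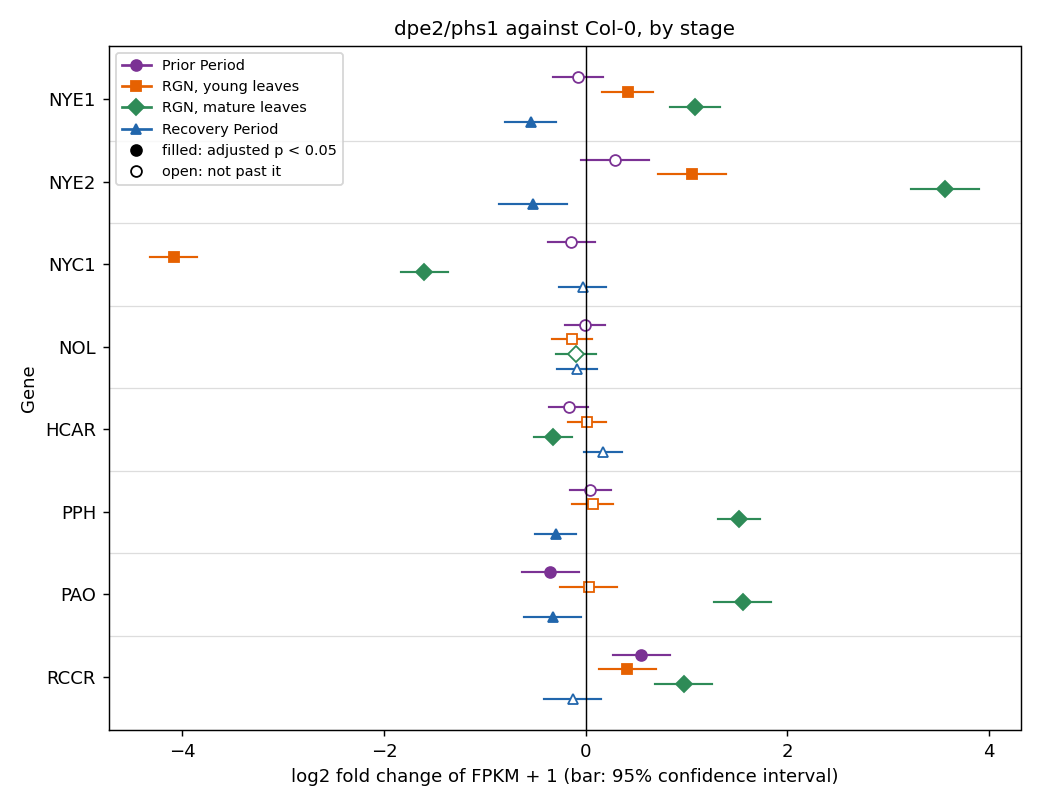
Log2 fold change of FPKM + 1 in dpe2/phs1 against Col-0 for the 8 genes at each stage, with 95% confidence intervals, filled where the adjusted p passed 0.05. NYE2 reaches 3.57 in mature leaves, NYC1 falls to −4.09 in young leaves, and the 4 markers of NOL all lie across 0.

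NYE1 (AT4G22920; chromosome 4, 12016420 to 12018643, minus strand) encodes the main magnesium dechelatase of senescing leaves. In mature leaves it had 23.3, 18.5 and 19.7 FPKM in dM, against 9.02, 8.50 and 9.74 FPKM in wM. The groups lay apart, with a 2.26-fold higher mean in the mutant (log2 fold change 1.09, SE 0.12, adjusted p = 4.9e-08, limma). In young leaves it had 10.4, 8.34 and 10.3 FPKM in dY, against 7.06, 7.09 and 6.76 FPKM in wY, again with no overlap (log2 0.42, adjusted p = 0.0059). The order was the other way round in Recovery, where dR had 5.86, 7.41 and 7.97 FPKM and the libraries labelled wR 9.79, 11.1 and 11.4 FPKM (log2 −0.55, adjusted p = 0.00063). In the Prior Period dP (5.44 to 6.37 FPKM) and wP (5.84 to 7.09 FPKM) overlapped. In the order of the 8 means, dM stood clear of wR and wM stood clear of dR, and all other neighbours overlapped. The call in young leaves was lost after median-of-ratios rescaling (adjusted p = 0.059), quantile normalization (0.16) and removal of the gene length trend (0.066).

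NYE2 (AT4G11910; chromosome 4, 7156150 to 7158047, plus strand) encodes the second dechelatase, and its upstream stretch holds the G-box and NAC core printed above. It reached 39.7, 40.0 and 32.1 FPKM in dM, against 1.89, 1.88 and 3.00 FPKM in wM. The mean was 16.5-fold higher in the mutant (log2 fold change 3.57, SE 0.16, adjusted p = 1.6e-14), the 160th largest rise of 19575 genes. In young leaves the level was low in both genotypes, at 2.83, 2.32 and 1.95 FPKM in dY and 0.696, 0.653 and 0.483 FPKM in wY. These groups did not overlap either (log2 1.06, adjusted p = 1e-05), on 52 to 77 reads a library in dY and 14 to 21 in wY. The pseudocount of 1 FPKM compresses such low values: with 0.1 FPKM in its place the young-leaf difference was 1.79. In Recovery NYE2 had 5.68, 5.55 and 6.28 FPKM in dR, below the 7.84, 7.87 and 10.95 FPKM of the libraries labelled wR (log2 −0.52, adjusted p = 0.0097). That call was lost on the TPM scale (adjusted p = 0.053), with the length trend removed (0.052) and without replicate 3 of wR (0.074).

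NYC1 (AT4G13250; chromosome 4, 7684156 to 7687006, minus strand) encodes a chlorophyll b reductase of the thylakoid and was the gene of the set that fell furthest. In young leaves it had 7.06, 9.09 and 8.77 FPKM in dY, against 154, 158 and 157 FPKM in wY. The dY mean was 18.8-fold below the wY mean (log2 fold change −4.09, SE 0.11, adjusted p = 3.7e-18), and only 5 of 19575 genes fell further. In mature leaves the gap was smaller, with 66.9, 56.9 and 52.2 FPKM in dM and 179, 177 and 180 FPKM in wM. The dM mean was 3.05-fold below the wM mean (log2 −1.60, SE 0.11, adjusted p = 2.7e-11), with no overlap. In the shoots the genotypes overlapped: dP had 192 to 205 FPKM and wP 202 to 237 FPKM, and dR had 107 to 134 FPKM and the libraries labelled wR 103 to 136 FPKM. The Recovery difference of NYC1 was called only with the length trend removed (log2 −0.21, adjusted p = 0.047). Below wP, the order of the 8 means ran dP, wM, wY, wR, dR, dM, dY, and only wP with dP and wR with dR overlapped among neighbours. Both leaf calls held in every alternative and without any 1 library.

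NOL (AT5G04900; chromosome 5, 1434774 to 1437495, plus strand), the partner of NYC1 in chlorophyll b reduction, passed the test between the genotypes at no stage. In young leaves it had 20.6, 19.4 and 23.1 FPKM in dY, against 21.5, 23.6 and 24.6 FPKM in wY. In mature leaves it had 15.9, 16.9 and 14.3 FPKM in dM, against 16.2, 16.9 and 17.2 FPKM in wM. The 95% interval of its log2 fold change was −0.34 to 0.06 in young and −0.29 to 0.10 in mature leaves. Changes of the size seen for NYC1 lie outside both intervals. The young-leaf difference passed the test after median-of-ratios rescaling (adjusted p = 0.013), quantile normalization (0.0054) and removal of the length trend (0.0013), and the mature-leaf difference after the last of these (0.0029), each time lower in the mutant.

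HCAR (AT1G04620; chromosome 1, 1282163 to 1286619, minus strand) encodes the reductase that makes chlorophyll a from the product of NYC1 and NOL. In mature leaves it had 32.3, 29.7 and 29.2 FPKM in dM, against 38.5, 36.6 and 39.5 FPKM in wM. The dM mean was 1.26-fold below the wM mean, with no overlap (log2 −0.32, SE 0.09, adjusted p = 0.0039), and the difference was −0.53 with quantile normalization. In young leaves the groups overlapped, at 39.7 to 42.7 FPKM in dY and 39.1 to 41.2 FPKM in wY (log2 0.01, interval −0.18 to 0.21). It had 31.6 to 34.2 FPKM in dP and 35.9 to 39.1 FPKM in wP, which did not overlap but missed the threshold (log2 −0.17, adjusted p = 0.16), and the difference passed it after median-of-ratios rescaling (log2 −0.26, adjusted p = 0.013) and quantile normalization (log2 −0.26, adjusted p = 0.012). Recovery held the lowest levels, 22.9 to 26.7 FPKM in dR and 18.7 to 24.7 FPKM in the libraries labelled wR (log2 0.17, adjusted p = 0.11). That difference was called higher on the TPM scale (log2 0.31, adjusted p = 0.016), with quantile normalization (log2 0.20, adjusted p = 0.033) and without replicate 2 of wR (log2 0.25, adjusted p = 0.043), and turned to −0.14 with the length trend removed (adjusted p = 0.12).

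PPH (AT5G13800; chromosome 5, 4451733 to 4454813, minus strand) encodes pheophytinase, which removes phytol after the magnesium is gone. It had 82.9, 83.1 and 87.8 FPKM in dM, against 30.1, 27.4 and 29.0 FPKM in wM. The mutant mean was 2.94-fold higher (log2 fold change 1.52, SE 0.10, adjusted p = 8.3e-12). In young leaves the groups overlapped, with 28.2, 32.1 and 33.2 FPKM in dY and 28.0, 29.6 and 31.2 FPKM in wY, and dP (25.7 to 29.2 FPKM) overlapped with wP (25.8 to 27.8 FPKM). In Recovery 2 of the 3 libraries labelled wR were high, so that dR had 35.6, 37.6 and 36.2 FPKM and wR 49.4, 50.2 and 36.9 FPKM. The difference passed the test (log2 −0.30, adjusted p = 0.015) but not without replicate 1 (0.067) or replicate 2 (0.092) of wR, nor on the TPM scale (0.23), with quantile normalization (0.16) or with the compared groups only (0.10).

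PAO (AT3G44880; chromosome 3, 16383595 to 16386344, plus strand) encodes the oxygenase that opens the ring and commits the pigment to breakdown. It had 156, 157 and 130 FPKM in dM, against 49.3, 46.8 and 51.6 FPKM in wM. The mutant mean was 3.00-fold higher (log2 fold change 1.56, SE 0.14, adjusted p = 1.1e-09). In dM PAO was the most abundant of the 8 genes, a place that RCCR held in dY and NYC1 in the other 6 groups. Its young-leaf libraries were spread widely, at 29.3, 51.5 and 45.7 FPKM in dY and 42.8, 43.8 and 34.2 FPKM in wY, and overlapped. Without replicate 1 of dY the difference passed the test (log2 0.27, adjusted p = 0.031). In the shoots PAO was lower in the mutant, with 28.8, 29.4 and 30.8 FPKM in dP against 37.2, 38.8 and 38.1 FPKM in wP, and with 44.4, 43.8 and 44.6 FPKM in dR against 56.97, 55.7 and 54.7 FPKM in the libraries labelled wR. Neither pair overlapped, but both calls were marginal (adjusted p = 0.047 and 0.045) and each was lost when any 1 of its 6 libraries was left out (adjusted p from 0.072 to 0.12 in the Prior Period and from 0.071 to 0.095 in Recovery). PAO shares 11 bases with the gene AT3G44870 on the same strand.

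RCCR (AT4G37000; chromosome 4, 17442612 to 17444295, plus strand), also called ACD2, encodes the reductase that detoxifies the opened ring. It had 79.8, 94.7 and 72.5 FPKM in dM, against 39.2, 40.1 and 44.4 FPKM in wM. The mutant mean was 2.00-fold higher with no overlap (log2 fold change 0.97, SE 0.14, adjusted p = 1.7e-06). RCCR was the only gene of the set called higher in the Prior Period, at 45.7, 45.4 and 43.3 FPKM in dP against 26.3, 32.4 and 32.4 FPKM in wP (log2 0.55, SE 0.14, adjusted p = 0.0028), and this call held in every alternative. In young leaves dY had 41.8, 58.9 and 62.6 FPKM and wY 42.7, 41.2 and 36.4 FPKM. The lowest dY library lay among those of wY, and the call (log2 0.41, adjusted p = 0.015) was lost under 4 alternatives and without any of 3 single libraries, with adjusted p of up to 0.19. In Recovery dR (47.8 to 54.7 FPKM) overlapped with the libraries labelled wR (48.5 to 66.3 FPKM). RCCR shares 167 bases with the gene AT4G37010 on the same strand, and reads there may be counted for either.

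Mature and young leaves were then set against each other within each genotype. In the mutant all 8 genes passed the test: NYE1, NYE2, NYC1, PPH, PAO and RCCR were higher in dM than in dY, and NOL and HCAR lower (6 higher and 2 lower, while 26.5% of all genes were higher and 41.2% lower). In Col-0 NYE1 and NYE2 were higher in wM than in wY and NOL lower (all genes 18.8% and 25.2%). NYC1 and PAO, whose wM and wY libraries did not overlap, were also called higher after median-of-ratios rescaling (adjusted p = 0.015 and 0.023), with the length trend removed (0.0087 and 0.020) and with the compared groups only (0.0077 and 0.046). NYE2 was 15.7-fold higher in dM than in dY (log2 fold change 3.51, adjusted p = 6.6e-14), the 31st largest rise of 19575 genes, and 3.69-fold higher in wM than in wY (log2 1.00, adjusted p = 2.5e-05). NYC1 was 7.07-fold higher in dM than in dY (log2 2.68, adjusted p = 1.3e-14) and 1.15-fold higher in wM than in wY (log2 0.19, adjusted p = 0.17). NOL was lower in mature leaves of both genotypes, with log2 −0.40 in the mutant (adjusted p = 0.00082) and −0.45 in Col-0 (adjusted p = 0.00054). The mutant calls of NOL and HCAR did not survive median-of-ratios rescaling (adjusted p = 0.17 and 0.075), which moved the median of all genes by 0.21, and the Col-0 call of NYE1 (adjusted p = 0.026) was lost without any of 5 single libraries (adjusted p up to 0.10).

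**Figure D3:**
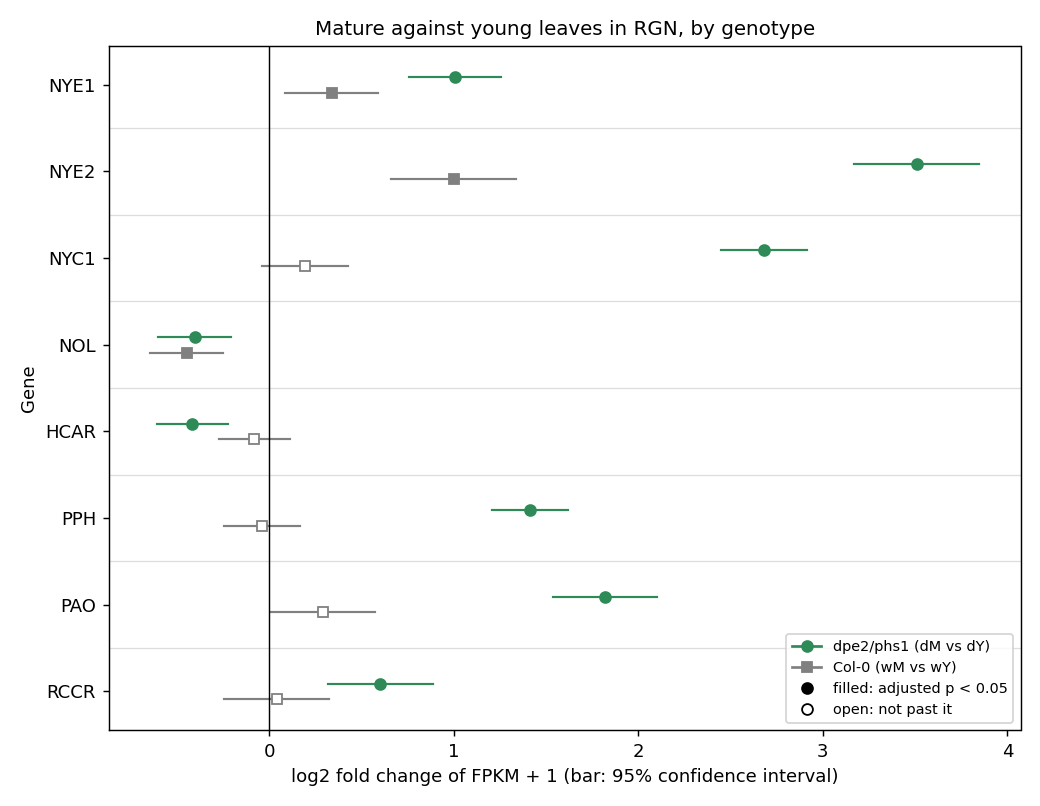
Log2 fold change of FPKM + 1 in mature against young leaves of RGN, in dpe2/phs1 (green circles) and Col-0 (grey squares), with 95% confidence intervals, filled where the adjusted p passed 0.05. NYE2 stands at 3.51 in the mutant and 1.00 in Col-0 and NYC1 at 2.68 and 0.19, while the markers of NOL nearly coincide.

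The difference between these leaf-age effects, mutant minus Col-0, was tested directly. It was positive for NYE1, NYE2, NYC1, PPH, PAO and RCCR and negative for HCAR, so 6 genes were higher and 1 lower (all genes 20.8% and 27.9%). NYE2 had 2.51 (SE 0.23, adjusted p = 1.7e-08) and NYC1 2.49 (SE 0.16, adjusted p = 6.1e-11), the 100th and 102nd largest of all genes. PAO had 1.53 (adjusted p = 1.5e-06), PPH 1.45 (adjusted p = 4e-08), NYE1 0.67 (adjusted p = 0.0026) and RCCR 0.56 (adjusted p = 0.021). For NYC1 the positive value stands for a smaller deficit in mature than in young leaves, and for NYE1, NYE2 and RCCR for an excess that was larger in mature leaves. For PPH and PAO it stands for an excess called in mature leaves only. In young leaves their genotypes overlapped (log2 0.07, adjusted p = 0.57, and log2 0.03, adjusted p = 0.85, limma). HCAR had −0.34 (adjusted p = 0.038) and NOL 0.04 (adjusted p = 0.81, interval −0.24 to 0.32). The call of HCAR was lost with median-of-ratios rescaling (adjusted p = 0.15), with the length trend removed (0.23) and without any of 8 of the 12 libraries. That of RCCR was lost with quantile normalization (adjusted p = 0.10) and without any of 3 of the 12: dY replicate 1, wY replicate 1 and dM replicate 2.

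Recovery was set against the Prior Period in the shoots, at 7 and 3 weeks of age. In the mutant NYE2, PPH and PAO were higher in dR than in dP, and NYC1 and HCAR lower (all genes 13.5% and 22.1%). NYE2 was 4.39-fold higher (log2 1.56, adjusted p = 2e-07, the 123rd largest rise), PPH 1.32-fold and PAO 1.49-fold. The mean of NYC1 in dR was 1.65-fold below that in dP (log2 −0.72, adjusted p = 3.7e-05). Calls were gained by NYE1, higher with median-of-ratios rescaling (adjusted p = 0.028) and quantile normalization (0.023), by NOL, lower with the length trend removed (0.046) and with the compared groups only (0.027), and by RCCR, higher with the compared groups only (0.049). Between the libraries labelled wR and wP, NYE1, NYE2, PPH, PAO and RCCR were higher and NYC1 and HCAR lower (all genes 33.0% and 38.6%). NYE2 was 9.72-fold higher in them (log2 2.37, adjusted p = 3.4e-11), NYE1 1.71-fold and RCCR 1.84-fold. In wR the decile of longest genes deviated from the decile of shortest by −1.86 to −0.77 in log2, the widest such gap of any group. Removing the length trend kept these 7 calls, took HCAR to −0.32 where it had been −0.71, and added NOL, lower in wR (log2 −0.37, adjusted p = 0.00039). On the TPM scale PAO lost its call (log2 0.32, adjusted p = 0.070) and NOL gained one (log2 −0.36, adjusted p = 0.0013), as it did without replicate 1 of wP (log2 −0.23, adjusted p = 0.045).

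Over the 24 libraries NYE1, NYE2, PPH, PAO and RCCR varied together, with Pearson r of log2(FPKM + 1) between 0.77 and 0.94 in their 10 pairs. The libraries share group membership, so these are descriptions, and without the 3 dM libraries the same pairs lay between 0.44 and 0.81. NYC1 did not follow these 5 genes, with r from −0.47 to −0.20.

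**Figure D4:**
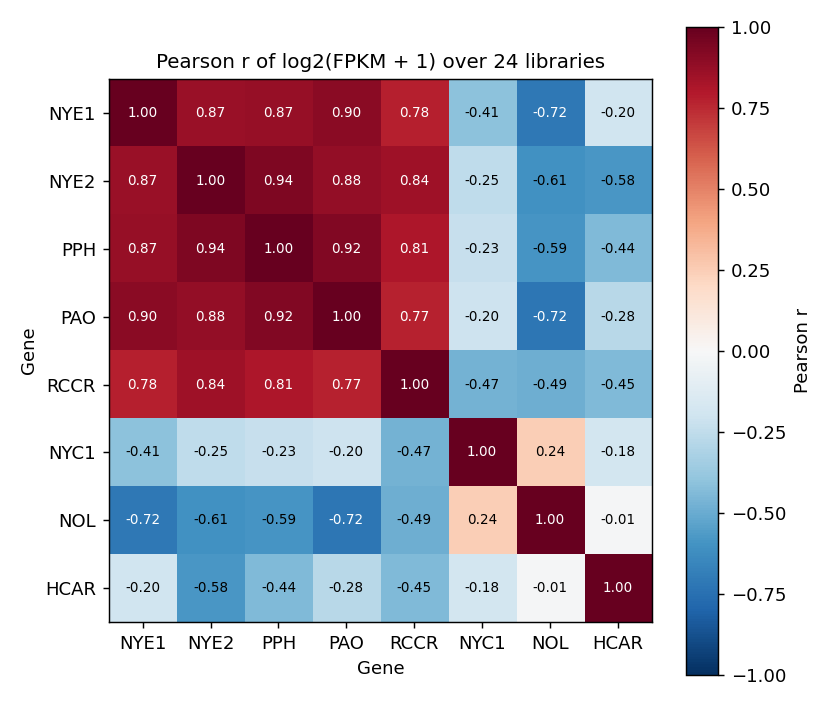
Pearson r of log2(FPKM + 1) over the 24 libraries for each pair of the 8 genes, in red where positive and blue where negative. The block of NYE1, NYE2, PPH, PAO and RCCR is positive throughout, and NYC1, NOL and HCAR lie outside it.

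The genes whose levels ran most like each member over the 24 libraries were picked by Pearson r among genes with a symbol. For NYE2 these were 3 NAC factors, NAC046 (r = 0.981), NAC059 (0.972) and NAC092 (0.97), and NAC092 averaged 31.5 ± 1.71 FPKM in dM and 0.816 ± 0.376 FPKM in wM (SD, n = 3 each). For PPH they were MYB2 (0.962), the senescence protease SAG12 (0.957) and the peroxisomal thiolase PED1 (0.956). For NYC1 they were the cytosolic ascorbate peroxidase APX1 (0.959), the iron-sulfur cluster assembly protein ABCI8 (0.959) and the organellar peroxidase APXS (0.949). APXS averaged 1.86 ± 0.493 FPKM in dY and 81.2 ± 5.77 FPKM in wY, and APX1 94.2 ± 3.89 FPKM in dY and 448 ± 72.7 FPKM in wY. The closest gene was SGP1 for NYE1 (0.948), the purple acid phosphatase PAP17 for PAO (0.952), TOL5 for RCCR (0.959), the UDP-glucose pyrophosphorylase UGP1 for HCAR (0.953) and IQD6 for NOL (0.927).

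Further genes linked to chlorophyll breakdown also differed in mature leaves. Of the 12 in this list, 9 were higher in dM than in wM and 1 was lower (all genes 36.6% and 32.5%). Their median log2 fold change was 1.16 beside 0.05 over all genes. The list is wider than breakdown itself, since BCM1, BCM2, VTE5 and VTE6 are not enzymes of breakdown. In dM and wM, BCM1 averaged 168.7 and 115.6 FPKM, BCM2 83.27 and 29.24 FPKM, VTE5 34.29 and 18.68 FPKM and VTE6 71.55 and 77.49 FPKM. The largest rises were CYP89A9, a P450 that shapes the final catabolites (101.8 ± 7.75 FPKM in dM and 9.04 ± 1.34 FPKM in wM, SD, n = 3 each, log2 3.36), PES1, a phytyl ester synthase (54.0 ± 2.93 FPKM in dM and 6.04 ± 0.76 FPKM in wM, log2 2.97), and MES16, a methylesterase of the catabolites (39.2 ± 2.25 FPKM in dM and 6.52 ± 0.917 FPKM in wM, log2 2.42). SGRL, a relative of NYE1 that is known from green leaves, was the gene called lower (32.5 ± 1.54 FPKM in dM and 70.2 ± 3.30 FPKM in wM, log2 −1.09). In young leaves 4 of the 12 were higher and 2 lower, near the shares of all genes (34.6% and 19.1%). Their median was 0.27 beside 0.15 over all genes.

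Of 26 chlorophyll synthesis genes tested, 17 were lower and 2 higher in mature mutant leaves (all genes 32.5% lower and 36.6% higher). In young ones 19 were lower and 1 higher (all genes 19.1% lower and 34.6% higher). HEMA1, which starts the pathway as glutamyl-tRNA reductase, averaged 12.8 ± 0.672 FPKM in dM and 66.8 ± 3.47 FPKM in wM (SD, n = 3 each, log2 −2.29), DVR, a divinyl reductase, had log2 −2.27 and CHLH, the large subunit of magnesium chelatase, −1.74, or −0.77 with the length trend removed. The chlorophyllide a oxygenase CAO, which makes chlorophyll b, rose (log2 0.57, or 0.35 with quantile normalization), as did the cyclase subunit CHL27 (0.35), whose call was lost with quantile normalization (adjusted p = 0.39) and removal of the length trend (0.14). Of 19 regulators tested, 12 were higher and 2 lower in mature leaves (all genes 36.6% higher and 32.5% lower). The largest rises were NAC055 (29.0 FPKM in dM, 0.0572 FPKM in wM, log2 4.82, or 7.59 with a pseudocount of 0.1 FPKM), NAC019 (log2 4.41) and NAC092 (4.18). The jasmonate factor MYC4 (−1.16) and the ethylene factor EIL1 (−0.89) fell. Of 7 senescence markers 6 were higher and 1, WRKY53 (log2 −1.41), lower, beside the same shares of all genes. SAG12 ranged from 40.4 to 45.8 FPKM in dM and was listed at 0 in every wM library, and SAG13 had a log2 fold change of 4.62.

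Of 17 antenna genes tested, whose proteins bind most chlorophyll, 6 were higher and 8 lower in mature mutant leaves. Of all genes 36.6% were higher and 32.5% lower, so the count of higher antenna genes was near the share of all genes. LHCB2.3 (log2 −3.75) and LHCB4.3 (−3.38) fell most, and LHCB1.1 (2.76) and LHCB1.2 (1.62) rose most, although near-identical copies of LHCB1 make the split of reads between them uncertain. Beside these counts, all 4 mesophyll markers were lower, with summed FPKM of 10940 to 11020 in dM and 25940 to 27680 in wM. In young leaves 3 of 4 were lower (all genes 19.1%), at 15580 to 16130 in dY and 19490 to 22330 in wY. The 6 vascular markers summed to 83.9 to 94.0 FPKM in dM and 79.5 to 89.3 FPKM in wM. Most of this sum was SUC2 (means of 72.96 FPKM in dM and 67.95 FPKM in wM). Taken singly, 1 of the 6 was higher in dM and 2 were lower (all genes 36.6% and 32.5%). In young leaves 2 were higher and 4 lower in the mutant (all genes 34.6% and 19.1%), with sums of 90.5 to 127.8 FPKM in dY and 124.6 to 134.2 FPKM in wY. Among the 8 floral markers 1 was at 0 in all dM libraries and 2 in all wM libraries, and the highest single value was 1.31 FPKM in dM. The part of these cell type markers in the changes of the 8 genes was not tested.

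**Figure D5:**
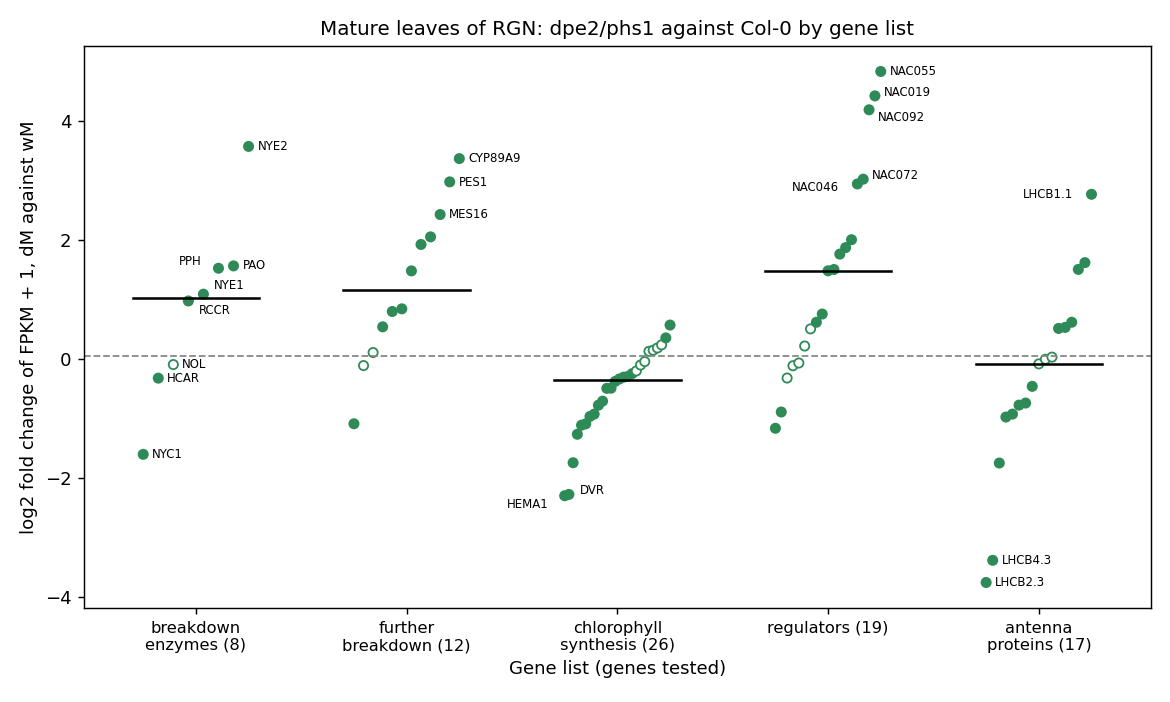
Log2 fold change of FPKM + 1 in dM against wM for the 8 enzymes and 4 related gene lists, with 1 point per gene, filled where the adjusted p passed 0.05, a black line at the median of each list and a dashed line at the median of all genes. The enzymes (median 1.03), further genes linked to breakdown (1.16) and regulators (1.48) lie mostly above 0 and the synthesis genes (−0.35) mostly below.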

How the data were processed

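Total RNA of leaves or shoots was sequenced as paired reads. The authors aligned cleaned reads to TAIR10 with HISAT2, their processing notes also name CASAVA and featureCounts, and the deposited values are FPKM per gene. Tool versions are not given in the sources used here. The deposited table also lists a gene length in bases, a quantity other than FPKM, and no other column of values was used. From the FPKM, whole reads were recovered with lengths fitted per gene: 100% of values lay within 0.02 of a whole number, against 56.7% with the listed lengths, and library totals were 17504383 to 27859805 (median 19438279).

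The study tested read counts. Because the table holds FPKM, limma 3.58.1 (R 4.3.3, lmFit and eBayes with a mean trend) was fitted to log2(FPKM + 1) over all 24 libraries for 19575 genes with a mean of at least 1 FPKM in at least 1 group. Adjusted p values are Benjamini-Hochberg over these genes, two-sided, with a threshold of 0.05, and no replicate block was used. Fold changes are on the log2(value + 1) scale, which understates those of low genes. The tests of the 8 genes in every comparison, and of the named list genes in dM against wM, were recomputed under 10 other settings: 0.1 FPKM as the pseudocount, genes kept without a filter or from 5 FPKM, median-of-ratios, quantile and TPM scaling, removal of a loess trend (span 0.3) on gene length, the compared groups alone, a replicate block and limma-voom on the recovered reads. Each library was also left out in turn, and a fit with no wR libraries was added after seeing the data. List counts and medians, correlations and the tests of DPE2 and PHS1 were not recomputed under these settings.

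The 8 genes and the related gene lists were chosen with earlier results of these data known. Every one of the 8 is named in each comparison. From each list the genes past the threshold in dM against wM with the largest rise and fall are named, up to 3 each for further breakdown, synthesis and regulators and up to 2 each for the other lists. For each of the 8 genes the 3 genes with a symbol and the highest Pearson r were found. All 3 are named for NYE2, NYC1 and PPH, and only the closest for the others. Gene positions are those of the deposited table; 32520 of the 32536 genes matched by locus had the same start and end in the RefSeq TAIR10.1 annotation. Pairs of replicates differed beyond sampling noise (mean chi-square per gene 2.50 to 68.4 over 24 pairs). The fits were tested on simulated data.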

Additional observations from a re-analysis of the deposited data

Results flagged for a closer look

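The effect of the mutant on 7 of the 8 genes differed between mature and young leaves of RGN, by the limma test of the difference itself. Such calls were common: of the 19575 genes tested, 20.8% were called higher and 27.9% lower by the same test. The difference, dM minus dY less wM minus wY in log2 of FPKM + 1, was 0.67 for NYE1, 2.51 for NYE2, 2.49 for NYC1, 1.45 for PPH, 1.53 for PAO and 0.56 for RCCR, and −0.34 for HCAR. For NYE2, NYC1, PPH and PAO it held under every alternative and without any 1 library. The call of HCAR was lost under 2 alternatives and without any of 8 of the 12 libraries, and that of RCCR under 1 alternative and without any of 3 of the 12.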

How the results depend on the processing

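In 6 of the 9 comparisons the count of genes called stayed within 1.5 times the value given under every alternative. In dP against wP the 2 calls became 1 with no filter, with the replicate block, with limma-voom and without any 1 of the 6 libraries (1 to 1). In dR against wR the 4 calls became 2 on the TPM scale and 2 to 3 without single libraries, with 2 without wR replicate 1 or replicate 3. In wM against wY the 3 calls became 5, with NYC1 and PAO added, with median-of-ratios rescaling, with the length trend removed and with the compared groups only. The fit with no wR libraries changed no count of calls. The values with a changed sign were past no threshold. For dP against wP, NYE1 ranged from −0.12 to 0.0064 and NOL from −0.11 to 0.041 without single libraries, and PPH was −0.041, −0.058 and −0.027 with median-of-ratios, quantile and TPM scaling. For dY against wY, with median-of-ratios, quantile and length-trend settings, HCAR was −0.16, −0.12 and −0.10, PPH −0.098, −0.092 and −0.057 and PAO −0.14, −0.092 and −0.097, and without single libraries HCAR ranged from −0.016 to 0.034 and PAO from −0.13 to 0.27. For dR against wR, NYC1 was 0.095 and 0.11 with quantile and TPM scaling and −0.15 to 0.050 without single libraries, NOL 0.049 and 0.048 on the TPM scale and with the length trend removed, HCAR −0.14 with the length trend removed and RCCR 0.0079 on the TPM scale. For wM against wY, with median-of-ratios and length-trend settings, HCAR was 0.033 and 0.016 and PPH 0.075 and 0.054, and without single libraries PPH ranged from −0.077 to 0.00059 and RCCR from −0.025 to 0.086. The interaction of NOL was −0.011 on the TPM scale and −0.011 to 0.11 without single libraries. Causes were not tested. Replicate numbers do not pair the libraries: same-numbered libraries correlated at −0.41 to 0.44 in their deviations, and under the replicate block PAO lost its calls in dP against wP (adjusted p = 0.053) and dR against wR (adjusted p = 0.050). In dY against wY the median of all genes moved by −0.14 with median-of-ratios rescaling, −0.19 with quantile normalization and −0.18 with the length trend removed. The log2 gap between longest and shortest genes was −0.70 to −0.35 in dM, 0.38 to 0.66 in wM and 0.05 to 0.64 in dY. Removing the length trend kept every call among the 8 genes in dM against wM and added NOL (adjusted p = 0.0029, limma). In dM against dY it took away the call of HCAR (adjusted p = 0.11). NYE2 rests on as few as 14 reads in a library, which limits its value in wY and wP.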

Other observations

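Other gene groups of chlorophyll metabolism differed in the shoots. All 17 antenna genes tested were higher in dR than in dP (median log2 fold change 1.00 beside −0.10 over all genes, of which 13.5% were higher), and all 17 were higher in the libraries labelled wR than in wP (median 1.65 beside −0.06, with 33.0% of all genes higher). Of 26 chlorophyll synthesis genes tested, 17 were higher and 2 lower in dR than in the libraries labelled wR (all genes 31.6% and 25.2%, median log2 0.46 beside 0.05). HEMA1 ranged from 149 to 173 FPKM in dR and from 30.7 to 51.8 FPKM in wR, and CHLH from 248 to 337 FPKM in dR and, widely spread, from 19.7 to 100.3 FPKM in wR, the group with the widest gene length gap. Already in the Prior Period 6 of the 7 senescence markers and 11 of the 17 antenna genes tested were higher in the mutant (all genes 24.3%).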
